A study of Mus musculus with 4 samples.

Results

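Cholesterol synthesis and its control were followed through 27 genes in single-cell transcriptomes of the mouse dorsal root ganglion (DRG), the ganglion that holds the cell bodies of sensory neurons. The 27 genes were chosen by symbol among the 33456 genes listed in the deposited matrices, and each symbol occurred once. They comprised 19 enzymes that build cholesterol from acetyl-CoA or feed its isoprenoid branch, 4 regulators (Srebf2, which encodes the transcription factor SREBP2, with Scap, Insig1 and Insig2), and 4 genes for transport and storage.

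Cells make cholesterol through the mevalonate pathway, in which acetyl-CoA units are condensed to mevalonate, turned into isoprenoids, joined to squalene and closed to the sterol ring. When sterols in the endoplasmic reticulum run low, SCAP escorts SREBP2 to the Golgi, where it is cut, and the freed part enters the nucleus and switches on the genes of the pathway. INSIG1 and INSIG2 hold SCAP back when sterols are plentiful. In the nervous system, glia make much of the cholesterol locally, and myelin is particularly rich in it.

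The study compared uninjured ganglia of C57BL/6 mice (control) with ganglia collected 3 days after a sciatic nerve crush (injury), from mice 8 to 12 weeks old. The paper calls the controls naive, while its methods also allow ganglia of the opposite side as controls. Whether these controls came from separate mice is not stated. The methods state that only females were used. They give lumbar ganglia L4 and L5 as the source, but the labels give only L4. Ganglia were dissociated with papain and collagenase, sorted for live cells and captured in droplets with a 3′ kit, and no transgene was involved. There were 2 libraries per condition. The labels number 1 library of each condition as 2, and the other is called library 1 here. By the methods, each batch pooled the cells of several mice and the experiment had biological replicates, but the labels tie no library to a batch. In the fits within 1 cell type, the p-values measure the spread between these libraries. The joint fit described below holds each library as a block. Its p-values measure the spread that remains among the sums of library and cell type.

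The matrices hold unique molecular identifiers (UMIs), each standing for 1 captured RNA molecule. The libraries held 1294 to 2509 barcodes and 5585909 to 11210875 UMIs, and 20 of the 6975 barcodes occurred in more than 1 library. After the limits on UMIs, genes and mitochondrial share, 6095 cells remained, of which 5126 fell into 9 cell types with at least 10 cells in every library. Every cell type name below stands for cells gated on marker genes, none of which was among the 27. Satellite glial cells (SGC), which wrap the neuronal cell bodies, were the most numerous with 1398 cells, and their 10 markers summed to 10841 to 18256 CPM (UMIs per 1000000 UMIs) in their own libraries. Counts were summed per library and cell type before any comparison, and CPM refers to the UMIs of that sum. As a 3′ kit counts molecules at 1 end, CPM was compared between genes without a correction for length. The cells gated as monocytes, called so below only for their gate, also carried 88768 to 234328 CPM of neutrophil markers, and the pericytes 4483 to 6021 CPM of smooth muscle markers. No doublet caller was run. The part of mixed droplets in the results was not tested beyond a tighter marker gate, given in the closing section.

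The promoters of 4 members are shown because their genes carry the level differences described next or encode SREBP2 itself. Hmgcs1 and Msmo1 are among the 3 members of the highest level in SGC, Idi1 had the largest fitted decrease after injury in other fibroblasts, and Srebf2 encodes SREBP2. They cover 250 bases before and 50 after the start site in RefSeq on build GRCm38.p6, which is the build mm10 named in the submitters' notes. Their places are chr13:119690101-119690400 on the plus strand for Hmgcs1, chr8:64733529-64733828 on the minus strand for Msmo1, chr13:8885356-8885655 on the plus strand for Idi1 and chr15:82147019-82147318 on the plus strand for Srebf2. Capitals mark CCAAT boxes, read as CCAAT or ATTGG by strand, and the sterol regulatory element core TCACNCCAC.
Hmgcs1: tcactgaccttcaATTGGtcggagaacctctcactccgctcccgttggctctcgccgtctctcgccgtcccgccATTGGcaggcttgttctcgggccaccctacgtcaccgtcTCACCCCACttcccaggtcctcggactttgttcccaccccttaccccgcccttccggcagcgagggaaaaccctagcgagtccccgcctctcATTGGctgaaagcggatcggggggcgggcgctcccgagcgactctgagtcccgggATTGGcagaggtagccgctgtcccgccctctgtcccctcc
Msmo1: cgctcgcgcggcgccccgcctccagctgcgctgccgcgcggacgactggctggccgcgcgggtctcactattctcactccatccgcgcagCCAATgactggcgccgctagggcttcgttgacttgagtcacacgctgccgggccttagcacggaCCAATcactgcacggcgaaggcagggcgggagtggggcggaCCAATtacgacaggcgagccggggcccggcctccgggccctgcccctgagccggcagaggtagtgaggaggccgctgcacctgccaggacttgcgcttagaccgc
Idi1: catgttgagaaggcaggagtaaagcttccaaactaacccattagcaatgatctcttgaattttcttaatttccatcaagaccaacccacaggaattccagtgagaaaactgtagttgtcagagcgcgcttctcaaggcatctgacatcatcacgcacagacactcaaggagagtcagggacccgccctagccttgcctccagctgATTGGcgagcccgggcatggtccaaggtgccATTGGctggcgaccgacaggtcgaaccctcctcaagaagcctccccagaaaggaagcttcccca
Srebf2: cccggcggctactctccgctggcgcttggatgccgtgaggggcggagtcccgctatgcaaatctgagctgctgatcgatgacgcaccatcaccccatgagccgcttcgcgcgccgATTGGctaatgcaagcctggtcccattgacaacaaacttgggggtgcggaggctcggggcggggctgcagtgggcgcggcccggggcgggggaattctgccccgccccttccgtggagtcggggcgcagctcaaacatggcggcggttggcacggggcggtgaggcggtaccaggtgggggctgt

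RefSeq held such a window for 22 of the 27 members. Of these 22, 20 (90.9%) had CCAAT on either strand, against 41.1% of all 27025 genes with a window and 42.7% of the 6064 with a window among the genes tested below. The GC box GGGCGG was also found in 20 of the 22, against 38.2% of all genes and 69.2% of the tested ones. The core TCACNCCAC stood in 1 member, Hmgcs1, which encodes the enzyme that makes HMG-CoA, and in 1.44% of all genes. It lay 137 bases before the start of Hmgcs1. None of the 84 pairs of different motifs within a window overlapped. A match is a description of the window and not a binding site.

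The level of the members depended first on the cell type. The 19 enzymes together reached 4304 and 7036 CPM in SGC of control libraries 1 and 2, and 4279 and 6646 CPM in injury libraries 1 and 2. Myelinating Schwann cells, the glia that wrap axons, had 3359 and 2733 CPM in control and 2740 and 4003 CPM after injury. In every library the sum was higher in SGC than in Schwann cells, while the lowest SGC value (4279 CPM) lay close to the highest Schwann value (4003 CPM), which came from injury library 2, where the Schwann sum also held 12.7% of the SGC marker level. The remaining 7 types were far lower. Their means ran from 432 ± 60.9 CPM in endothelial cells to 704 ± 462 CPM in pericytes (SD, n = 4 libraries), against 5566 ± 1481 CPM in SGC and 3208 ± 605 CPM in Schwann cells.

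**Figure D1:**
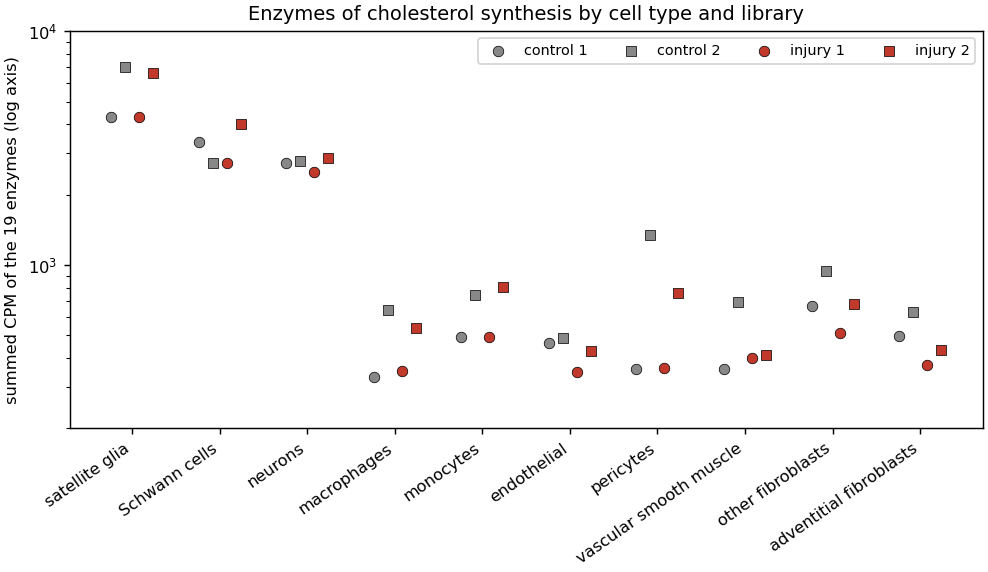
Summed CPM of the 19 enzymes (log axis) in each cell type, 1 point per library, grey for control and red for injury, circles for libraries 1 and squares for libraries 2. Satellite glia lie between 4279 and 7036 CPM, Schwann cells and neurons between 2508 and 4003 CPM, and the other types at 1337 CPM or lower.

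A joint edgeR quasi-likelihood fit over all 36 sums of library and cell type (9 types in 4 libraries) compared the level of each gene in a type with the mean of the other 8 types, over both conditions. It tested 8070 genes, all 27 members among them, and called a gene at a Benjamini-Hochberg adjusted p under 0.05. In SGC, 23 of the 27 members were called higher and 0 lower, against 28.0% of all tested genes called higher and 11.4% lower. Insig2, Scap, Ggps1 and Npc2 were not called. The median log2 fold change of the members was 2.89, and that of all tested genes was 0.05. Leaving out any 1 library left 22 or 23 members called higher in SGC. Lss and Tm7sf2 passed the filter on low counts only through their SGC sums. Their calls of higher in SGC were thereby favored in advance and add no support. Without that filter, 22 members were called higher in SGC.

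The first steps, to mevalonate and its phosphates, were called higher in SGC for all 5 enzymes. Hmgcs1 had 1122.9 ± 353 CPM in SGC (SD, n = 4), the highest of the enzymes, and its log2 fold change over the other types was 3.97 ± 0.15 (SE). By library it stood at 897 and 1414 CPM in control and 747 and 1434 CPM after injury. The other enzymes of these steps were Acat2, which joins acetyl-CoA units, the kinases Mvk and Pmvk, and the decarboxylase Mvd, with log2 fold changes of 2.12 (Pmvk) to 3.49 (Mvd). Libraries 2 were higher than libraries 1 for Hmgcs1 in both conditions.

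Of the isoprenoid enzymes, Fdps and Idi1 were called higher in SGC and Ggps1 was not. Fdps makes farnesyl diphosphate, the precursor of squalene and of prenyl groups. It had 816 and 1336 CPM in control SGC and 859 and 1217 CPM in injury SGC, with a log2 fold change of 3.37 ± 0.18 (SE). Idi1, the isomerase of the isoprenoid unit, had 279.5 ± 81.2 CPM (SD, n = 4) and a log2 fold change of 3.39 ± 0.20. Ggps1, which makes the longer geranylgeranyl unit outside the path to sterols, had 16.9 ± 8.19 CPM in SGC and was highest in vascular smooth muscle at 32.2 ± 11.0 CPM.

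All 11 enzymes from squalene synthesis to cholesterol were called higher in SGC, Ebp by the smallest margin with a log2 fold change of 0.42 ± 0.15 (SE). Ebp, a sterol isomerase, had 72.4 ± 11.5 CPM in SGC and its highest means in the cells gated as monocytes (94.6 ± 19.0 CPM) and in macrophages (88.7 ± 20.7 CPM; SD, n = 4). Msmo1, a sterol methyl oxidase, was the most abundant of them, with 585 and 993 CPM in control SGC and 540.0 and 890.1 CPM in injury SGC. Sqle, which adds oxygen to squalene, had 372 ± 115 CPM (SD, n = 4) and a log2 fold change of 4.18 ± 0.19. Fdft1 makes squalene, Cyp51 removes the first ring methyl group, and Nsdhl, Hsd17b7, Sc5d and Dhcr7 finish the ring and side chain. Their log2 fold changes ran from 2.82 (Sc5d) to 3.83 (Hsd17b7). Lss, which closes the ring, and Tm7sf2, a sterol reductase, showed the widest fitted differences, but Tm7sf2 had 0 UMIs in all 4 monocyte sums and Lss in all 4 monocyte and all 4 pericyte sums, so that these fits depend on the small count added to each value. In SGC they had 38.7 ± 16.9 and 77.9 ± 15.8 CPM, and in Schwann cells, the next highest of the 9 types for both, 7.53 ± 7.62 and 16.0 ± 10.7 CPM.

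**Figure D2:**
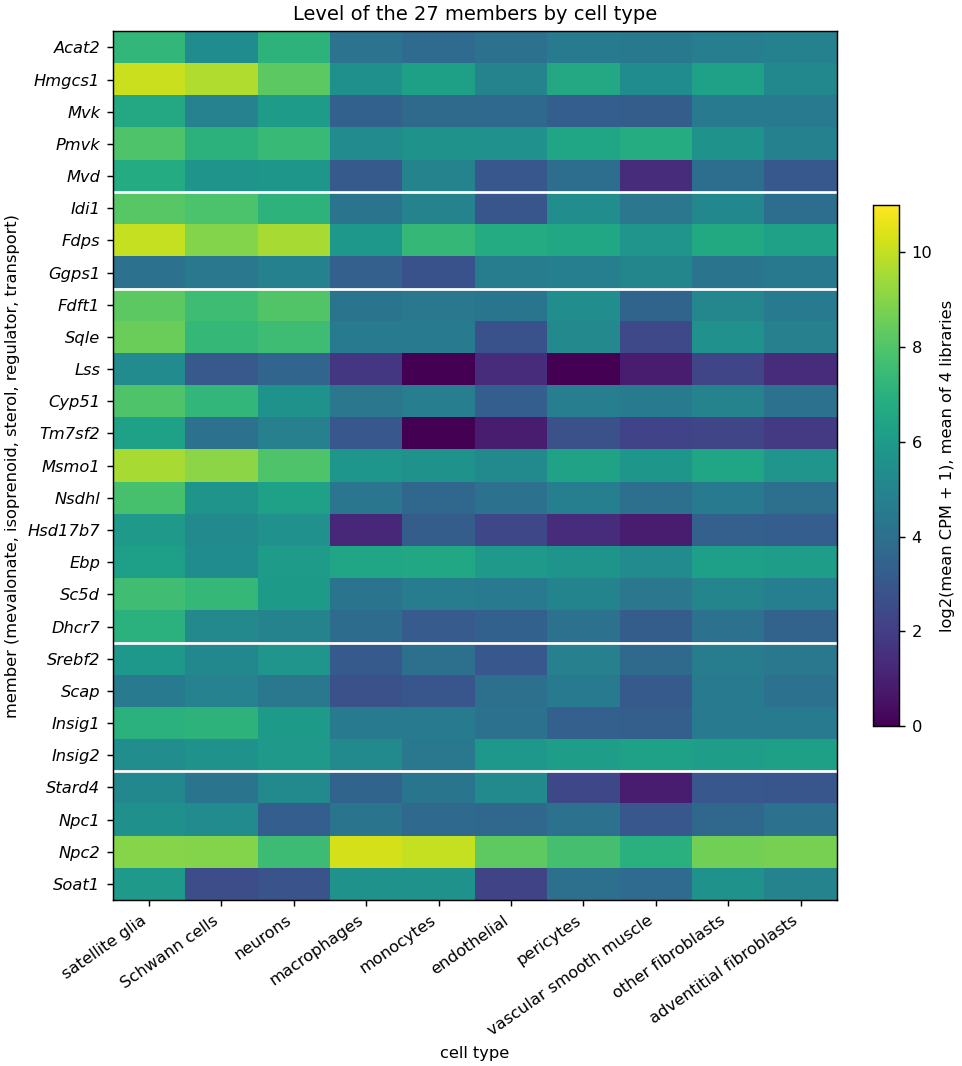
Mean level of each of the 27 members over 4 libraries, as log2(mean CPM + 1), with cell types in columns and members in rows in the order mevalonate, isoprenoid, sterol, regulator and transport, parted by white lines. Most enzymes are brightest in satellite glia, then Schwann cells and neurons, whereas Npc2 is brightest in macrophages at 1249 CPM.

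The regulators ranged in mean level from 21.2 CPM (Scap) to 129.0 CPM (Insig1) in SGC. Srebf2 had 85.0 and 55.3 CPM in control SGC and 47.5 and 43.8 CPM in injury SGC, and its log2 fold change over the other types was 1.79 ± 0.21 (SE). Insig1 had 165 and 141 CPM in control SGC and 96.3 and 113 CPM in injury SGC, with a log2 fold change of 2.75 ± 0.17. Insig2 went another way among cell types. It had 28.3 and 41.7 CPM in control SGC and 33.5 and 62.6 CPM in injury SGC, and was highest in vascular smooth muscle (76.9 ± 30.5 CPM) and adventitial fibroblasts (75.7 ± 18.1 CPM), which did not differ beyond their spread. Scap had 28.3 and 18.4 CPM in control SGC and 18.7 and 19.5 CPM in injury SGC, with a mean of 21.2 ± 4.75 CPM (SD, n = 4).

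Among the transport genes the highest type differed from gene to gene. Npc2, the lysosomal protein that hands cholesterol from degraded lipoproteins to NPC1, was called higher in macrophages with a log2 fold change of 2.13 ± 0.16 (SE), at 1374 and 1229 CPM in control and 1235 and 1158 CPM after injury. It was also called higher in the cells gated as monocytes (1059 ± 513 CPM, SD, n = 4), and was not called in SGC (505 ± 59.4 CPM). Soat1, which stores cholesterol as esters, was called higher in SGC, macrophages, monocytes and other fibroblasts. It was called lower in Schwann cells, endothelial cells and pericytes, on 0 to 3 UMIs per library. Stard4, a carrier of cholesterol between membranes, was called higher in endothelial cells (37.7 ± 12.2 CPM) and in SGC (33.7 ± 9.20 CPM), and these values lay within each other's spread. Npc1 had 45.4 ± 11.3 CPM in SGC and was called higher there and in Schwann cells.

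Schwann cells came next to SGC. There 17 members were called higher and 1 lower, against 18.9% and 9.90% of all tested genes, with a median log2 fold change of 1.37. The count of members called higher ran from 13 to 15 when 1 library was left out. Soat1 was the member called lower, on 0 to 2 UMIs per library. A direct contrast of SGC with Schwann cells in the same fit, added after the data were seen, called 13 members higher in SGC and 0 lower, against 11.0% and 9.12% of all tested genes. With a replicate block the number was 8. The 13 were Soat1, Tm7sf2, Lss, Nsdhl, Acat2, Dhcr7, Mvk, Mvd, Sqle, Fdps, Ebp, Pmvk and Cyp51. The difference was 2.18 ± 0.28 (log2, SE) for Nsdhl, which had 222 ± 45.3 CPM in SGC and 51.5 ± 22.7 CPM in Schwann cells (SD, n = 4). Hmgcs1 and Msmo1 were not among them. Their differences were 0.34 (95% interval -0.16 to 0.84) and 0.42 (-0.04 to 0.88) on the log2 scale, and that of Insig1 was -0.09 (-0.55 to 0.38). Of the 13, Lss had 0 to 3 and Tm7sf2 1 to 4 UMIs per library in Schwann cells. Both passed the filter on low counts only through SGC, so their calls add no support.

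The 7 tested types other than SGC and Schwann cells mostly stood below the mean of the others, and many of those calls rested on few UMIs. For each of the 7, that mean includes SGC and Schwann cells. A call of lower therefore partly restates the high level of these glia and is not a separate finding. In endothelial cells 1 member was called higher and 13 lower, against 24.6% and 12.1% of all tested genes, and the number called lower was 2 without injury library 1, 4 without control library 2, 7 without injury library 2 and 7 with a replicate block. Idi1 had the lowest fitted value there, with a log2 fold change of -2.79 ± 0.46 (SE). In vascular smooth muscle 1 was higher, Insig2, and 11 lower, against 16.2% and 11.1%, with 4 lower without either library 1, 5 without control library 2 and 6 without injury library 2. In pericytes 0 were higher and 5 lower, against 14.3% and 6.22%, with 1 lower without either library 1 and 8 without control library 2. With a replicate block the pericytes had 1 higher and 11 lower. Among macrophages 4 were higher (Npc2, Soat1, Ebp and, on 3 to 10 UMIs per library, Tm7sf2) and 8 lower, against 28.0% and 11.9%, with 0 lower without injury library 1, 3 without control library 1, 5 without injury library 2 and 1 with a stricter marker gate. The cells gated as monocytes had 4 higher and 2 lower, against 21.2% and 21.0%, with 2 higher and 1 lower without control library 1 and 0 lower without injury library 1. In the fit over all libraries, the shares called higher in these 7 types were below those of all genes. The shares called lower were above them except in monocytes and in other fibroblasts, where 1 of 27 was lower against 6.70%.

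RNA set free by broken cells can enter other droplets, and SGC markers were therefore measured in the other types. Summed over the 10 SGC markers, the level as a share of that in SGC of the same library ran from 0.04% (endothelial cells) to 13.6% (pericytes of control library 2). The 19 enzymes together ran from 6.20% to 19.0% of the SGC level in the 7 tested types other than SGC and Schwann cells, and this share was above the marker share in all 4 libraries of each type. The same markers set the gate, which raises their level in SGC and lowers it in the other types. The marker share can therefore understate the SGC RNA in those types, and the order of the shares follows in part from the gate. The highest enzyme sum among these 7, 1337 CPM in pericytes of control library 2, was in the sum with the highest marker share. The part of free RNA in the low levels was not tested further.

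After injury, 0 members were called higher or lower in any of the 9 types. The edgeR fit within each type tested 27 members in SGC, 24 in other fibroblasts, 21 in macrophages, 14 in Schwann cells, 10 in endothelial cells, 9 in pericytes, 7 in monocytes, 5 in adventitial fibroblasts and 4 in vascular smooth muscle, the remainder having too few UMIs. The background was equally empty, with 0% of the 2453 to 9022 genes tested called in any type. At an unadjusted p under 0.05 there were 105 of 9022 genes in SGC, none of them a member, and 537 of 7247 in macrophages, of which 1 was a member. DESeq2 called 0 members, and of all genes 1 in SGC, 13 in macrophages, 3 in monocytes, 6 in other fibroblasts and 0 elsewhere.

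In SGC the members lay around 0. The log2 fold changes of injury over control had a median of -0.03, with 12 members above 0 and 15 below, against a median of 0.01 over all 9022 genes. They ran from -0.45 for Insig1 to 0.50 for Soat1. The median was -0.37 without control library 1 and 0.53 without control library 2, so its sign rested on single libraries. With a replicate block it was 0.04. Hmgcs1 gave -0.03 (95% interval -0.93 to 0.88), Msmo1 -0.10 (-0.95 to 0.76) and Sqle -0.04 (-0.92 to 0.83).

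The libraries numbered 2 stood above those numbered 1 in SGC by more than injury stood apart from control. Of the 19 enzymes, 17 were higher in both libraries 2 than in both libraries 1, as were 19 of the 27 members, against 19.9% of the genes tested in SGC. None of the members had the opposite order, against 26.9% of the genes. Between the conditions, 1 member had both injury libraries above both control libraries, Soat1, against 10.8% of the genes, and 2 had them below, Srebf2 and Insig1, against 14.9%. The median SGC had 2374 and 3091 UMIs in libraries 1 of control and injury and 4291 and 5015 in libraries 2, and the SGC markers summed to 10841 and 14703 CPM in libraries 1 and 18256 and 16981 CPM in libraries 2. Whether depth or the state of the SGC in these libraries accounts for the order was not tested.

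**Figure D3:**
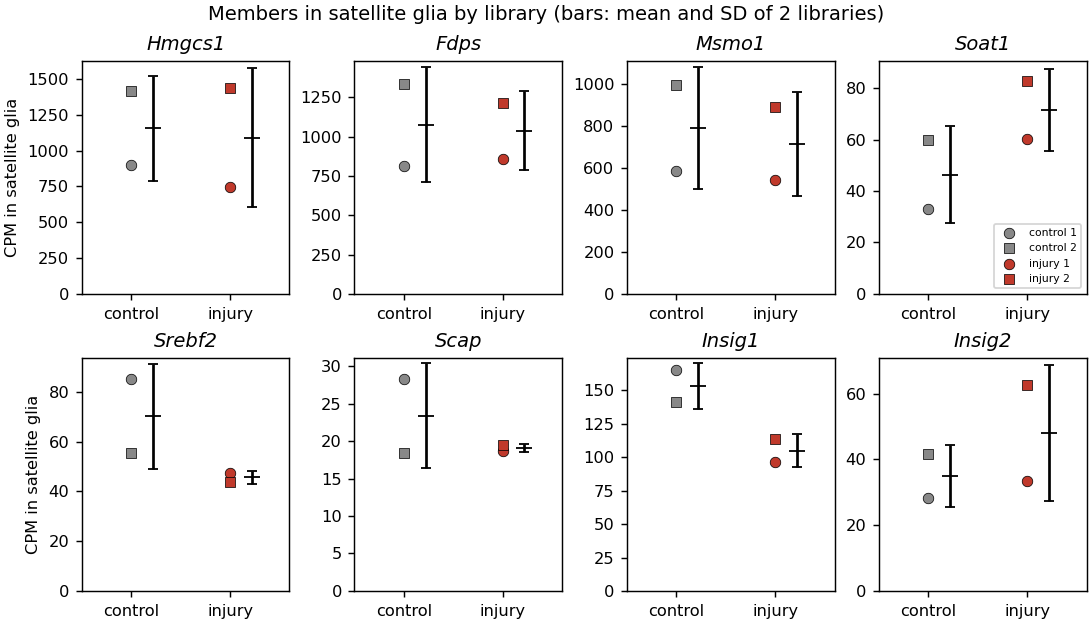
CPM (vertical axis) in control and injury satellite glia for the 3 members of the highest level, for Soat1 and for the 4 regulators, 1 point per library (circles for libraries 1, squares for libraries 2) and bars for the mean and SD of 2 libraries. Hmgcs1, Fdps and Msmo1 differ more between libraries 1 and 2 than between conditions, while both injury values of Srebf2 and Insig1 lie below both control values.

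Srebf2 and Insig1 were the regulators whose conditions did not overlap in SGC. For Srebf2 the log2 fold change of injury over control was -0.43 ± 0.27 (SE), with a 95% interval of -1.07 to 0.20. The higher control value rested on 18 UMIs, since control library 1 held 76 SGC. For Insig1 it was -0.45 ± 0.23, with an interval of -0.99 to 0.09, and control library 1 gave 35 UMIs. Neither passed the test, and both intervals include 0. Insig2 gave 0.35 ± 0.39 and Scap -0.07 ± 0.36.

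Fibroblasts were split into adventitial fibroblasts (237 cells with a UMI of Pi16 or Dpp4) and other fibroblasts (1104 cells). In the other fibroblasts, the median log2 fold change of the 24 tested members was -0.31, with 4 above 0 and 20 below, against a median of -0.01 over all 8816 genes tested. Without any 1 library the median ran from -0.58 to -0.19, and with a replicate block it was -0.31. Idi1 had 41.4 and 54.2 CPM in control and 15.2 and 26.3 CPM after injury. Its log2 fold change was -1.17 ± 0.33 (SE), with a 95% interval of -1.94 to -0.39. Idi1 was the only member of this fit under an unadjusted p of 0.05, beside 158 of the 8816 genes. Its adjusted p by edgeR was 0.9996. Sqle (-0.73, interval -1.50 to 0.05), Hmgcs1 (-0.71, -1.70 to 0.29), Srebf2 (-0.70, -1.53 to 0.12) and Msmo1 (-0.56, -1.14 to 0.01) had the same sign without passing the test. The 19 enzymes summed to 668 and 942 CPM in control and 512 and 682 CPM after injury, so that the ranges overlapped, while in either pair of equally numbered libraries the injury value was the lower.

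In adventitial fibroblasts the enzymes summed to 496 and 629 CPM in control and 372 and 430.5 CPM after injury, and these ranges did not overlap. The share of all genes without overlap was not counted in this type. For single genes in SGC it was 14.9% with injury below control, which is no background for a sum of enzymes in another type. Mean sums went from 145 to 90.9 CPM for the mevalonate enzymes and from 306 to 194 CPM for the sterol enzymes. Most enzymes in these sums had too few UMIs in this type to be tested. The isoprenoid enzymes had 112 CPM in control and 116 CPM after injury. Of the 5 members with enough UMIs, Msmo1 had 73.0 and 59.4 CPM in control and 35.7 and 39.1 CPM after injury, a log2 fold change of -0.74 (95% interval -1.68 to 0.20). These Msmo1 values rest on 15 and 20 UMIs in control and 10 and 11 UMIs after injury. Ebp, Fdps, Npc2 and Insig2 lay between -0.13 and 0.17. The SGC markers in adventitial fibroblasts summed to 29.2 to 107 CPM, at most 0.63% of the SGC level, and in other fibroblasts to 57.9 to 838 CPM, at most 4.59%.

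**Figure D4:**
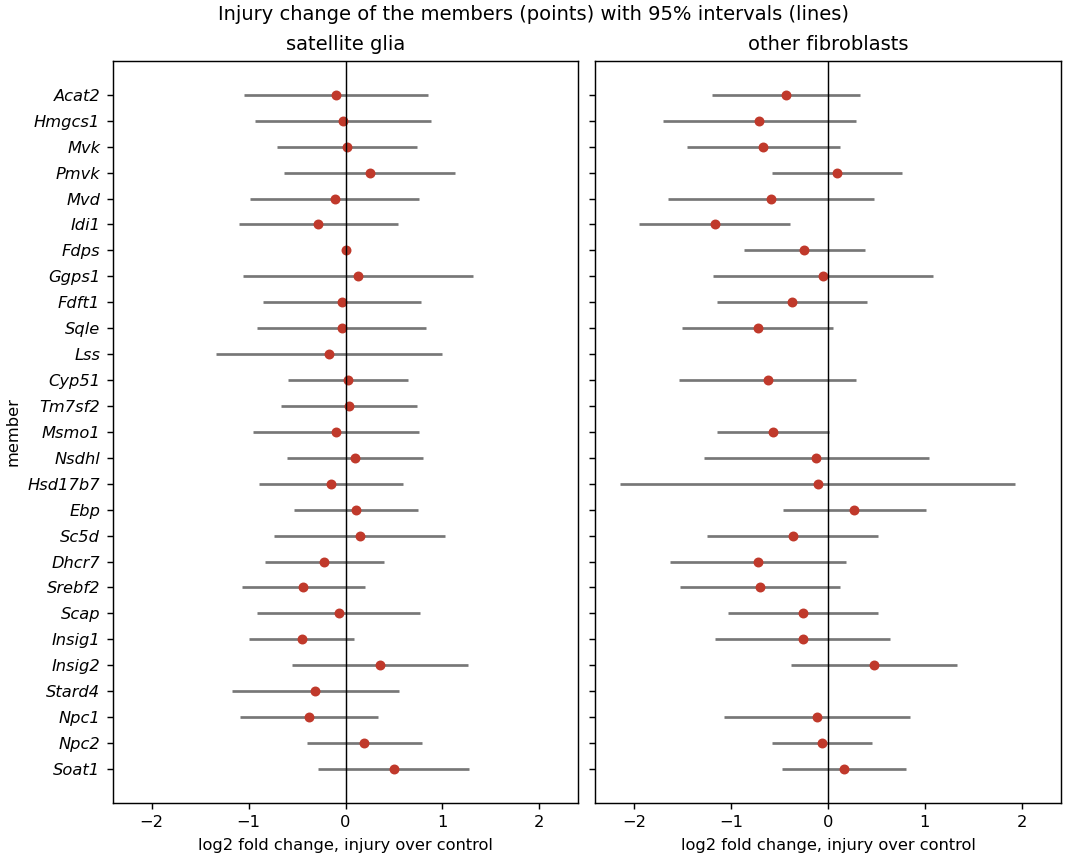
Log2 fold change of injury over control (points) with 95% intervals (lines) for the members in satellite glia and in other fibroblasts. Nearly all intervals span 0, and in the fibroblasts 20 of the 24 tested members lie to the left. Fdps in satellite glia, at 0.00, has no interval because its test statistic was too close to 0, and Lss, Tm7sf2 and Stard4 were not tested in the fibroblasts.

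The injury change itself was then compared between cell types in the joint fit. In each of the 9 types against the mean of the others, and in adventitial against other fibroblasts, 0 of the 27 members and 0% of the 8070 genes were called. At an unadjusted p under 0.05 there were 3 members in Schwann cells (Nsdhl, Cyp51 and Acat2), 1 in macrophages (Npc1), 1 in pericytes (Sqle) and 1 in adventitial fibroblasts (Hsd17b7), beside 99 to 399 of all genes per type. Nsdhl had 28.2 and 36.0 CPM in control Schwann cells and 74.2 and 67.5 CPM after injury. These values rest on 6 and 6 UMIs in control and 16 and 9 UMIs after injury. In SGC Nsdhl had 170 and 261 CPM in control and 199 and 259 CPM after injury. Acat2 had 32.9 and 6.00 CPM in control Schwann cells and 60.3 and 60.0 CPM after injury, the value of 6.00 CPM resting on 1 UMI. The Schwann cells of injury library 2 also held 2151 CPM of the SGC markers (12.7% of the level in SGC), against 144 to 273 CPM in the other Schwann sums, and the part of this in these values was not tested. The Schwann values of library 2 rest on 37 and 24 cells, and the difference of Nsdhl was 1.64 ± 0.60 (log2, SE; adjusted p by edgeR 1.0). For SGC against the other types, the median difference over the members was 0.16, against -0.01 over all genes. Between the fibroblast kinds it was -0.18, against 0.00.

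The level in adventitial fibroblasts was below that in other fibroblasts for 24 of the 27 members, at a median log2 difference of -0.56, against -0.08 over all genes. None of them was called, while 1.36% of all tested genes were called higher and 1.75% lower in adventitial fibroblasts. At an unadjusted p under 0.05 there were 7 of the 27 members, all lower, beside 1059 of the 8070 genes tested. Hmgcs1 had 24.3 and 65.3 CPM in control and 17.9 and 28.5 CPM in injury adventitial fibroblasts, and 65.2, 128, 36.4 and 79.0 CPM in the other fibroblasts of the same libraries. It was lower in the adventitial cells of every library, with a log2 difference of -1.24 ± 0.35 (SE; adjusted p by edgeR 0.0527). Pmvk (-0.93 ± 0.27) and Msmo1 (-0.93 ± 0.30) followed. By library, 18 to 22 of the 27 members were lower in the adventitial cells, and the same count was not made over all genes. In every library the other fibroblasts also held more SGC marker RNA than the adventitial cells. The marker share of the SGC level was 0.53% to 4.59% in the other and 0.27% to 0.63% in the adventitial fibroblasts. The part of SGC RNA in the level difference was not tested. Under 4 alternatives named in the closing section, 1 or 2 members were called lower. The mean of all other types, used next, includes SGC and Schwann cells with their high levels. Against the mean of all other types, adventitial fibroblasts had 0 members called higher and 6 lower, against 17.8% and 7.05% of all genes, with 3 lower without injury library 1, 2 without either library 2 and 2 with a replicate block. Other fibroblasts had 3 called higher (Soat1, Scap and Sqle) and 1 lower (Pmvk), against 24.4% and 6.70%, with 1 higher without control library 1 and 0 lower when any 1 library was left out.

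**Figure D5:**
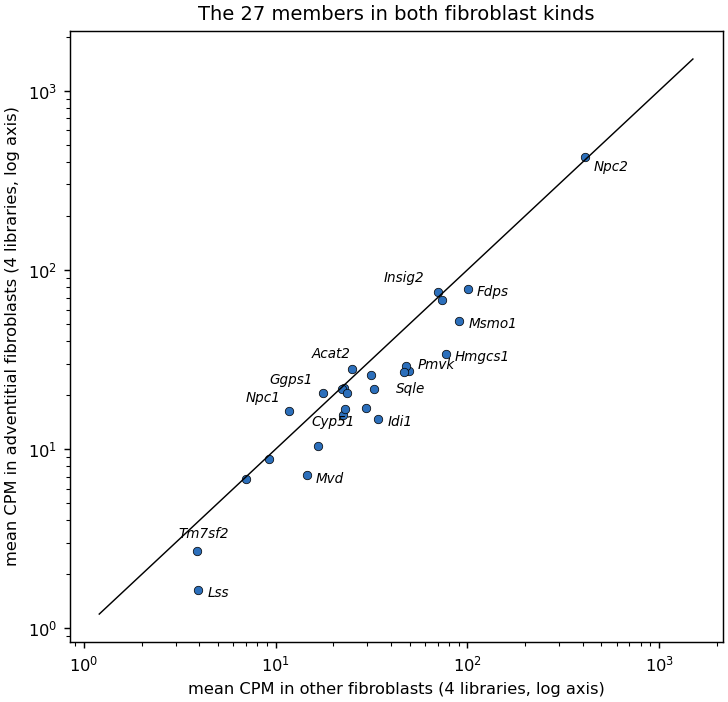
Mean CPM of the 27 members over 4 libraries in other fibroblasts (horizontal, log axis) against adventitial fibroblasts (vertical, log axis), with a line at equal values. Hmgcs1, Idi1, Msmo1 and Mvd lie below the line, and Npc2 lies on it near 409 and 427 CPM.

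Neurons were gated apart, without the upper limits on UMIs and genes, which most of them exceed. The 307 neurons had a median of 21091 UMIs, and their enzymes summed to 2717 and 2774 CPM in control and 2508 and 2882 CPM after injury. SGC markers reached 275 to 762 CPM in them. All 27 members were tested and 0 were called, against 0.0290% (3 of 10345) of all genes. An unadjusted p under 0.05 by edgeR was reached by 1005 of the 10345 genes and by 1 of the 27 members. This member was Hsd17b7, a reductase of sterol synthesis, with 22.5 and 28.3 CPM in control and 76.8 and 58.9 CPM after injury. Its log2 fold change was 1.54 ± 0.28 (SE; 95% interval 0.86 to 2.22; adjusted p by edgeR 0.212). Srebf2 had 53.9 and 76.0 CPM in control neurons and 31.6 and 45.0 CPM after injury. Insig1 had 74.5 and 78.0 CPM in control and 42.6 and 56.1 CPM after injury. All 4 regulators together had 220 and 241 CPM in control neurons and 133 and 182 CPM after injury. None of them was called, and the share of all neuron genes without overlap was not counted.

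The members varied together across the 36 sums to differing degrees. Over the 171 pairs of enzymes the median Spearman correlation was 0.58, as a description only, since the sums share libraries, depth and the split between glia and other cells. Sqle (median 0.72 with the other enzymes), Idi1 (0.72) and Hmgcs1 (0.71) had the highest values, and the highest pair was Hmgcs1 with Idi1 at 0.91. Ebp (-0.11) and Ggps1 (-0.12) did not follow the others. Insig1 stood at 0.63 with the enzymes and Insig2 at -0.06.

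Genes next to the pathway were counted in 4 lists, against the 28.0% of all tested genes called higher and the 11.4% called lower in level in SGC. In SGC, 3 of 4 genes of acetyl-CoA supply were called higher in level and 0 lower, namely Acss2 (log2 fold change 3.75), Aacs (2.91) and Acly (1.28), which make or activate the carbon units used for synthesis. Of 5 tested genes for prenyl groups, dolichol and ubiquinone (10 listed), 2 were called higher, the farnesyltransferase subunits Fnta (2.54) and Fntb (2.88). Of 6 tested genes for SREBP processing (9 listed), 1 was called higher, Srebf1 (2.11). Of 15 tested genes for sterol transfer and efflux (18 listed), 7 were called higher and 1, Lipa (-1.59), lower. The 7 were Gramd1b, Abcg1, Stard3, Abca1, Nceh1, Scarb1 and Scarb2, with Gramd1b, which moves sterol between membranes, the highest at 4.23. In macrophages and in endothelial cells 9 of these 15 were called higher, against 28.0% and 24.6% of all tested genes. After injury 0 genes of the 4 lists were called in any type.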

How the data were processed

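Libraries were made with a droplet 3′ kit from dissociated ganglia sorted for live cells, 2 per condition. The authors processed the reads with Cell Ranger against mm10, per the labels, and used Partek for their analysis. The deposited values are raw UMI counts per gene and barcode.

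The cell limits of the methods were applied, with 600 and 15000 UMIs and 500 and 4000 genes as the bounds and a mitochondrial share below 10%. Each cell was assigned to the type with the highest share of its marker list detected, with at least 3 markers and no tie. Fibroblasts with a UMI of Pi16 or Dpp4 were called adventitial. Types with at least 10 cells in every library were tested; 453 cells had no type. Doublets were not called. Precision is limited by 2 libraries per condition, and by 24 to 619 cells per library in SGC and Schwann cells.

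UMIs were summed per library and type and fitted with edgeR 4.0.16 in R 4.3.3 (TMM, filterByExpr, quasi-likelihood test, Benjamini-Hochberg over all tested genes; called under 0.05). Within types the model held the condition alone. The joint model held the library as a block, the type and the type by injury terms, so that the 36 sums share 1 estimate of the spread. Standard errors are the absolute log2 fold change over the square root of F. DESeq2 1.42.0 was an alternative within types. Scripts were tested on simulated data. 

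The members and lists were chosen with earlier results of these data known. All 27 members are named. Values by library are given for members called in an injury change or between types or fibroblast kinds, the 3 highest in SGC and the regulators. Others chosen after their values were seen are Idi1 in fibroblasts, Hsd17b7 in neurons, Nsdhl and Acat2 in Schwann cells and Npc2 in macrophages. So were Soat1 in SGC, Hmgcs1 and Msmo1 in fibroblasts, and Srebf2 and Insig1 in neurons.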

Additional observations from a re-analysis of the deposited data

How the results depend on the processing

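With only a log2 fold change of 2 or more counted, member calls in level over all 9 types fell from 53 to 33 higher and from 47 to 11 lower, and a stricter marker gate (at least 4 markers) gave 26 lower. Without 1 library the calls ran from 44 to 49 higher and from 11 (without injury library 1) to 27 lower (without either control library). Between the fibroblast kinds 0 members were called in level as reported, 2 without a filter on low counts, 2 with only the lower limits on cells, 1 with the stricter gate and 1 with Pi16 alone as the adventitial marker. The cause of these shifts was not tested. For SGC against Schwann cells the 13 calls became 5 with the log2 limit of 2, 8 with the replicate block and 9 to 15 without 1 library. Calls of 0 members in the injury change, within types or between them, were 0 under every alternative run, among them DESeq2, DESeq2 size factors, no filter and each library left out. A gate that kept only cells whose second marker list reached at most 75% of the first, added after the data were seen, left 23 members higher in level in SGC and 16 in Schwann cells. With it the number lower went from 8 to 5 in macrophages, from 11 to 7 in vascular smooth muscle and from 2 to 4 in monocytes, and the number higher in vascular smooth muscle from 1 to 2. The labels number only the libraries called 2, and whether equal numbers mark a shared batch is not given in them. With the replicate block 0 members were called in the injury change, while 0 to 45 genes per type were. Deviations of same-numbered libraries correlated at 0.23 to 0.54 within types. With 1 library left out, a condition has a lone library that is assumed to vary like the others. Depth limits the types with few cells, which had as few as 10 in a library.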

Other observations

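Cell types with fewer than 10 cells in some library were left out of the tests, and their values are given as a description. Glia with markers of non-myelinating Schwann cells (144 cells) had an enzyme sum of 1763 ± 239 CPM (SD, n = 4), between Schwann cells and the other 7 tested types, while the SGC markers in them summed to 2012 to 5664 CPM against 10841 to 18256 CPM in SGC. Neutrophils (56 cells) had 275 ± 118 CPM, dendritic cells (55 cells) 546 ± 183 CPM, perineurial cells (32 cells) 519 ± 288 CPM and B cells (42 cells) 444 ± 117 CPM. Per library there were 5 to 94 of the non-myelinating glia, 9 to 23 neutrophils and 8 to 23 dendritic cells. Perineurial cells numbered 1 to 15 and B cells 5 to 23 per library. Control library 1 held 1 perineurial cell, so that its value stands for that cell alone.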
